A study of Mus musculus with 6 samples.

Results

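Box H/ACA small nucleolar RNA (snoRNA) genes were examined in D10 cells, a cloned mouse helper T cell line labelled CD4+, after culture in the cold. The members are the genes of type snoRNA whose symbol starts with Snora, 40 of the 41079 genes in the deposited expression table, which also lists 100 box C/D snoRNA genes with symbols starting with Snord. Cold-acclimated cells were kept at 26°C for 24 h and non-acclimated cells at 37°C for 24 h, with 3 replicates each. The libraries hold poly(A)+ RNA, and by the labels all 6 come from this single clone. A group thus stands for 1 cell line and not for T cells in general. The labels give lymph node as the source and name 2 sets of RNA extractions, old and new, treated as replicates, without saying which library belongs to which, so p-values cover only the spread between these libraries.

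Box H/ACA snoRNAs fold into a pair of hairpins joined by a hinge that carries the H box, and end in a tail that carries an ACA triplet. Bound to dyskerin and its partner proteins, they guide the conversion of uridine to pseudouridine in ribosomal and spliceosomal RNA, and a few act in cleavage of the ribosomal RNA precursor. In mammals most are cut out of the introns of other genes, many of which encode ribosomal proteins or translation factors, and the mature snoRNA ends without a poly(A) tail.

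The libraries held 16899639 to 31290868 reads assigned to genes, recovered from the deposited TPM, transcript abundances scaled to gene length and library total. In a gene of 130 bases 1 read was worth 0.639 to 1.12 TPM, so most levels given here rest on few reads. Of the T cell markers, Cd3e and Gata3 were at 387 TPM or more in each library, whereas Cd4 was at 310 and 328 TPM in the replicate 3 libraries and at 0.0351 to 1.3 TPM in the other 4, Trac was at 12.8 and 15.0 TPM in replicate 2 and at 129 TPM or more elsewhere, and Trbc1 was at 0 in 5 libraries. The 4 B cell markers together reached at most 1.11 TPM, and the 4 macrophage and monocyte markers 2.46 to 3.39 TPM in replicates 1 and 2 and 15.9 and 21.2 TPM in replicate 3. Libraries with the same number thus shared marker levels at both temperatures, replicate 3 stood apart in Cd4, and the members called without it are named below. Cd4 and Trac differed in this way between libraries labelled as 1 clone, and the cause was not tested.

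The sequences of 8 members that the results turn on are printed 5′ to 3′ on the sense strand, read from the GRCm39 genome at the positions of the deposited table. They are the members that were called, the member pair of Snhg3, and the 4 members with the highest mean TPM. Capitals mark the letters ANANNA nearest the middle of the gene (the H box consensus, searched between 35% and 65% of the length) and ACA ending 2 to 4 bases before the 3′ end, where these were found.
Snora44 (chr4:132037264-132037380, plus strand): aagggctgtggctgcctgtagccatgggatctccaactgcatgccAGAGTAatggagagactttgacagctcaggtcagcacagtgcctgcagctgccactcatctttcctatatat
Snora28 (chr12:111507380-111507501, plus strand): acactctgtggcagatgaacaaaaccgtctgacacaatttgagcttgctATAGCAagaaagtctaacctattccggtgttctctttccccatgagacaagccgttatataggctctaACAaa
Snora73b (chr4:132079633-132079837, minus strand): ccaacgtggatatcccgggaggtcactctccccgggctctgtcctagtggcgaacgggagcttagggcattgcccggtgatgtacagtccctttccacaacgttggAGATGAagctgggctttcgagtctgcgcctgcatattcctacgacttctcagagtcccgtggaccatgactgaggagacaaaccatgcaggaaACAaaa
Snora73a (chr4:132080086-132080290, minus strand): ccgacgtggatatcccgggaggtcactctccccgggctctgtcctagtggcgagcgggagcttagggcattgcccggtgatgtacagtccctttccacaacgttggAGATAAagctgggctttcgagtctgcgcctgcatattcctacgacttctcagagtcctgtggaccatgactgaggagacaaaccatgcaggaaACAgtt
Snora65 (chr2:32853313-32853430, plus strand): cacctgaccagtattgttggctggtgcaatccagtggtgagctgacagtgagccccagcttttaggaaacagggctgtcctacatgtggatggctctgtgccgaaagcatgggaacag
Snora7a (chr6:115784936-115785064, minus strand): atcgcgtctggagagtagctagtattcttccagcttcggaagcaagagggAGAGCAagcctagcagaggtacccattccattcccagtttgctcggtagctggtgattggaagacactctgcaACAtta
Snora3 (chr7:109119339-109119458, plus strand): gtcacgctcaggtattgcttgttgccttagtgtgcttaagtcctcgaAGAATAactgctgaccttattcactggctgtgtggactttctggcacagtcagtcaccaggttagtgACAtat
Snora70 (chrX:73316098-73316226, plus strand): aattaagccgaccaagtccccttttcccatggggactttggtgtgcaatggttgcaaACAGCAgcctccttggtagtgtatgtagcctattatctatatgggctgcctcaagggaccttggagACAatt

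Across the 40 members the ACA triplet stood at that place in 34, against 2 of the 100 box C/D genes and 2 of the 80 windows of the same length that lie next to the members on either side. The letters ANANNA stood near the middle in 31 members, in 54 of the 100 box C/D genes and in 34 of the 80 neighbouring windows, and both were found together in 27 members and 1 window. The members were 56 to 205 bases long in the table, with a median of 121. All 40 lie at the place where GENCODE M39 lists a gene of the same name, but in 22 the table's span is at least 10 bases shorter, so that Snora61, for example, is entered with 62 bases. Snora73a and Snora73b matched in 198 of 205 aligned bases, and 16 of the 40 members, among them Snora65, Snora3, Snora70, Snora73a, Snora73b, Snora81 and Snora9, had at least 1 other genomic site with 95% identity over 80% of their length. Reads from such sites cannot always be told apart by sequence, so the values of these members are uncertain.

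Every member lies within another gene on the same strand, in 35 different host genes. By the main transcript of the host in GENCODE, 32 members lie in an intron and 7 in an exon, and for 1 (Snora57) the host, 5730408K05Rik, was not in that annotation. Ribosomal protein genes hosted 11 members, other protein-coding genes 16 and noncoding genes 13. The distance from an intronic member to the next exon had a median of 172 bases (interquartile range 77.5 to 404), and that of the 80 intronic box C/D genes a median of 93.0 bases (76.0 to 326).

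The summed level of the 40 members was 234, 216 and 367 TPM in non-acclimated replicates 1, 2 and 3, and 665, 621 and 274 TPM in cold-acclimated replicates 1, 2 and 3. Cold-acclimated libraries 1 and 2 were high, and cold-acclimated replicate 3 lay within the range of the non-acclimated libraries, so the groups overlapped. The means were 272 ± 82.8 and 520 ± 214 TPM (SD, n = 3 each), a ratio of 1.91. Within the replicate numbers the ratio was 2.84 in replicate 1, 2.88 in replicate 2 and 0.746 in replicate 3. The sums rest on 201, 226 and 571 reads in non-acclimated and 698, 691 and 350 reads in cold-acclimated libraries. Snora65 alone gave 14.5% to 34.5% of the sum, and without it the ratio was 1.76.

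**Figure D1:**
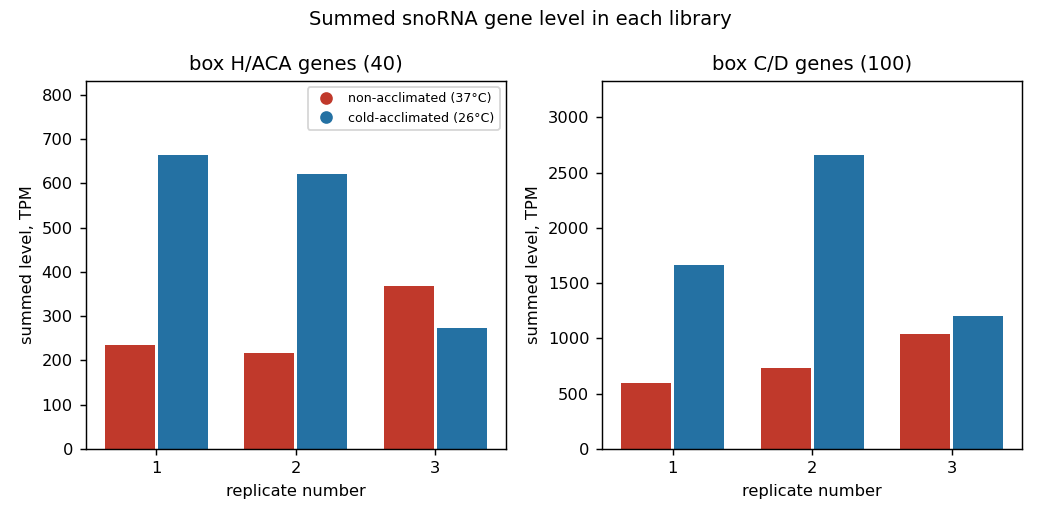
Summed TPM of the 40 box H/ACA genes (left) and the 100 box C/D genes (right) in each library, as bars from 0 by replicate number, red for non-acclimated and blue for cold-acclimated cells. The box H/ACA bars were 665 and 621 TPM in cold-acclimated replicates 1 and 2 and 274 TPM in replicate 3.

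Reads were found for 32 members, and 8 (Snora19, Snora24, Snora26, Snora33, Snora35, Snora36b, Snora47 and Snora57) were at 0 in all 6 libraries. In a gene of the median length the floor of 3 reads per library corresponds to 2.05 to 3.60 TPM, which limits these 8 for counting error only. Another 4 (Snora15, Snora20, Snora23 and Snora78) had reads but a mean below 1 TPM. The 28 members with a mean of 1 TPM or more were tested, together with all such genes of the table, 12227 in number. That mean is over all 6 libraries. Snora34 and Snora44 passed it only through the cold-acclimated libraries, with means of 0.579 and 0.710 TPM in non-acclimated cells. The members' mean number of reads per library had a median of 12.6 over these 28, and 16 members had a mean of at least 10 reads.

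Snora44 and Snora28 were upregulated after cold acclimation, 2 of 28 tested members, and none was downregulated. Snora44 entered the test only through the group in which it was high. Genes were called at a Benjamini-Hochberg adjusted p below 0.05 in limma and a log2 fold change of 1 or more in either direction. Over all tested genes 2.63% were upregulated and 16.0% downregulated. At an unadjusted p below 0.05 in limma, 9 members were higher and 1 (Snora73b) was lower, beside 7.75% and 30.0% of all tested genes, and limma-voom on the recovered reads also called no member down. The members' log2 fold changes, cold-acclimated over non-acclimated on the log2(TPM + 1) scale, ran from -1.50 to 2.91 with a median of 0.94, beside a median of -0.34 over all tested genes. They were above 0 in 22 of 28 members (78.6%) and in 33.5% of all tested genes, and 1 or more in 12 members (42.9%) and in 4.47% of all tested genes.

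The levels of the 2 conditions did not overlap in 7 members that were higher in cold-acclimated cells (Snora9, Snora17, Snora21, Snora28, Snora41, Snora44 and Snora52), which is 25.0% of the tested members beside 9.69% of all tested genes. They did not overlap in 2 that were lower (Snora70 and Snora73b), beside 31.4% of all tested genes. With the replicate number as a block, since libraries with the same number varied together, 6 members were upregulated (Snora9, Snora17, Snora21, Snora28, Snora44 and Snora75) beside 3.75% of all genes, and 1 downregulated (Snora73b) beside 21.9%. With the libraries rescaled by the median of their ratios, 6 members were upregulated (Snora9, Snora17, Snora21, Snora28, Snora44 and Snora52) and none downregulated, beside 6.56% and 8.79% of all genes.

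The change differed between replicate numbers. In replicates 1 and 2 the median difference of the 28 members was 1.33 on the log2(TPM + 1) scale in each, with 23 members higher in cold-acclimated cells, whereas the medians over all tested genes were -0.32 and -0.44. In replicate 3 the members' median was -0.22, with 12 higher and 16 lower, and the median over all genes was -0.24. A total of 10 members were higher in cold-acclimated cells in each of the 3 replicates, and 2 (Snora70 and Snora73b) were lower in each. Without both replicate 3 libraries, a choice made after their values were seen, 15 of the 28 members were upregulated in limma beside 5.34% of all tested genes, and none was downregulated beside 25.3%. These 15 were Snora3, Snora5c, Snora9, Snora16a, Snora17, Snora21, Snora28, Snora41, Snora44, Snora52, Snora64, Snora65, Snora68, Snora75 and Snora81, with log2 fold changes of 1.09 (Snora5c) to 3.71 (Snora44) and adjusted p of 0.0035 to 0.049 in limma. The difference between replicate numbers could not be tested, because each temperature has 1 library per number, and the part of the markers that set replicate 3 apart was not tested.

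**Figure D2:**
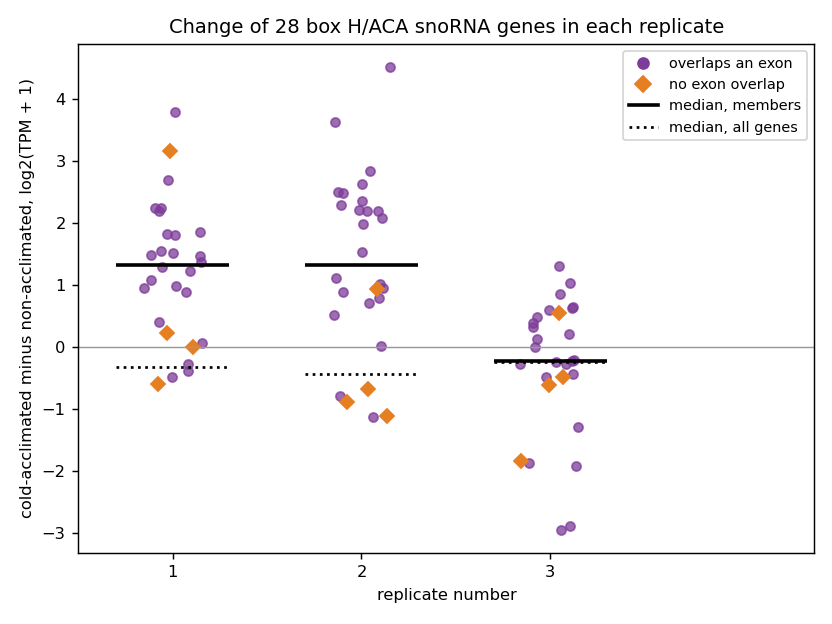
Cold-acclimated minus non-acclimated log2(TPM + 1) of the 28 tested members in each replicate; circles are members that overlap an annotated exon and diamonds those that do not, solid lines the members' medians and dotted lines the medians of all 12227 tested genes. The members' median is 1.33 in replicates 1 and 2 and -0.22 in replicate 3, where it lies beside the median of all genes.

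Among the members inside ribosomal protein genes, 10 of 11 were tested and none was called, with a median log2 fold change of 0.97 and 8 of 10 above 0. Snora65, the most abundant member, lies in intron 4 of Rpl12, which encodes a protein of the large ribosomal subunit. It had 64.3, 52.6 and 56.4 TPM in non-acclimated replicates 1 to 3 and 229, 154 and 39.9 TPM in cold-acclimated replicates 1 to 3. Cold-acclimated replicates 1 and 2 were above all non-acclimated libraries and replicate 3 below them. The log2 fold change was 0.95 (standard error, SE, 0.58, adjusted p = 0.28 in limma), and without cold-acclimated replicate 3 it was 1.69 (adjusted p = 0.0054 in limma). Replicate 3 was singled out by its values here and below, which favours a low p, so such p-values do not show a change. Without cold-acclimated replicate 1 or 2, Snora65 was at 0.44 or 0.73 (adjusted p = 0.64 or 0.52 in limma). Its host Rpl12 had 4423, 4637 and 2702 TPM, and 7074, 7886 and 3401 TPM in the cold (log2 fold change 0.59, adjusted p = 0.32 in limma), so the host was higher in the cold within each replicate and the snoRNA gene in replicates 1 and 2 only.

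Snora3, in intron 3 of Rpl27a, had 7.29, 18.3 and 22.9 TPM in non-acclimated and 53.0, 87.0 and 18.8 TPM in cold-acclimated replicates. The log2 fold change was 1.54 (SE 0.61, adjusted p = 0.11 in limma), and without cold-acclimated replicate 3 it was 2.14 (adjusted p = 0.020 in limma). Without cold-acclimated replicate 2 it was 1.06 (adjusted p = 0.29 in limma). Rpl27a itself, a large-subunit protein gene, had 1222, 1026 and 800 TPM, and 1603, 1853 and 911 TPM in the cold. As in Snora65, cold-acclimated replicates 1 and 2 were above all non-acclimated libraries of the snoRNA gene and replicate 3 was not. Snora68 had 7.44, 4.97 and 14.4 TPM against 38.9, 29.5 and 12.0 TPM in the cold (log2 fold change 1.45, SE 0.51, adjusted p = 0.078 in limma). Without cold-acclimated replicate 3, Snora68 had a log2 fold change of 1.92 (adjusted p = 0.018 in limma). The library left out was the one within the non-acclimated range, so this p does not show a change. Without cold-acclimated replicate 1 the log2 fold change of Snora68 was 1.11 (adjusted p = 0.23 in limma).

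Snora7a, which lies in an exon of the annotated main transcript of Rpl32, had 30.5, 17.9 and 25.1 TPM in non-acclimated and 57.3, 37.0 and 25.1 TPM in cold-acclimated replicates (log2 fold change 0.63, SE 0.35, adjusted p = 0.24 in limma). The levels in replicate 3 were equal to 3 digits. Rpl32 had 4588, 3043 and 2301 TPM against 6530, 5808 and 2853 TPM in the cold. Snora64, in intron 2 of Rps2, which encodes a small-subunit protein, had 8.73, 4.16 and 12.8 TPM against 19.8, 20.9 and 10.9 TPM in the cold (log2 fold change 0.99, SE 0.43, adjusted p = 0.13 in limma). Rps2 had 155, 140 and 155 TPM against 212, 125 and 213 TPM. Both members again had their lowest cold-acclimated level in replicate 3.

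Snora70 ran the other way. It lies in intron 4 of Rpl10 on the X chromosome and had 27.1, 32.1 and 30.3 TPM in non-acclimated but 20.6, 18.1 and 3.04 TPM in cold-acclimated replicates, without overlap. The log2 fold change was -1.38 (SE 0.61, adjusted p = 0.14 in limma). Without cold-acclimated replicate 3, which rests on 4 reads, it was -0.60 and without both replicate 3 libraries -0.59. Rpl10 had 2198, 2867 and 2229 TPM against 2325, 3280 and 1879 TPM in the cold, a log2 fold change of 0.01. The remaining 4 tested members in ribosomal protein genes were less abundant. Snora21 in Rpl23 (2.28, 0 and 2.60 TPM against 8.13, 5.21 and 4.59 TPM) and Snora52 in Rplp2 (4.35, 2.72 and 8.06 TPM against 12.1, 25.7 and 9.50 TPM) did not overlap between conditions, with log2 fold changes of 1.58 and 1.45 and adjusted p of 0.068 and 0.061 in limma. With a pseudocount of 0.1 the value of Snora21 was 2.77. Snora62 in Rpsa and Snora69 in Rpl39 had log2 fold changes of 0.56 and -0.50, with libraries at 0 TPM among the non-acclimated ones.

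**Figure D3:**
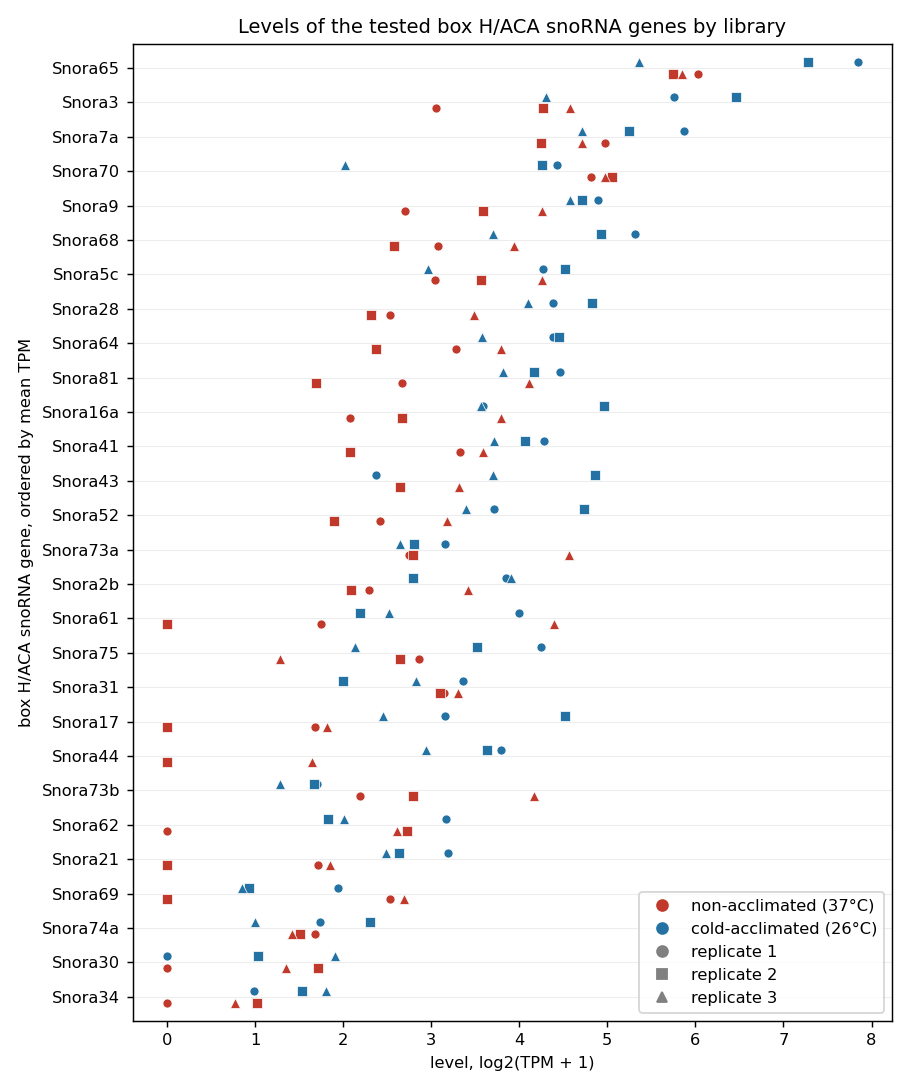
Level of each of the 28 tested members in every library on the log2(TPM + 1) scale, ordered from bottom to top by mean TPM; red is non-acclimated, blue cold-acclimated, and the symbol gives the replicate number. For Snora65 the cold-acclimated libraries were at 229, 154 and 39.9 TPM, the triangle of replicate 3 lying left of the red symbols.

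Members inside other protein-coding genes numbered 16, of which 9 were tested, 7 of these with log2 fold changes above 0 and a median of 0.92. Snora28 was upregulated. It lies in intron 6 of Eif5, which encodes a translation initiation factor, and had 4.78, 3.99 and 10.2 TPM in non-acclimated and 19.9, 27.3 and 16.1 TPM in cold-acclimated replicates. Every cold-acclimated library was above every non-acclimated one, with 4, 4 and 15 reads against 21, 30 and 20. The means were 6.33 ± 3.39 and 21.1 ± 5.72 TPM (SD, n = 3 each), the log2 fold change was 1.65 (SE 0.38) and the adjusted p was 0.023 in limma. The call was lost when either library of replicate 1 or of replicate 2 was left out (adjusted p between 0.081 and 0.090 in limma), with log2 fold changes of 1.42 to 1.68, and with limma-voom on the recovered reads (adjusted p = 0.072). Eif5 had 120, 159 and 177 TPM against 173, 232 and 305 TPM in the cold (log2 fold change 0.62, adjusted p = 0.16 in limma), higher in the cold within each replicate but with overlapping groups.

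Snora81, in intron 7 of Eif4a2, a gene for an RNA helicase of translation initiation, had 5.34, 2.23 and 16.2 TPM against 21.1, 16.9 and 13.1 TPM in the cold (log2 fold change 1.33, SE 0.57, adjusted p = 0.13 in limma). Here it was non-acclimated replicate 3 that stood above its group, and without it the log2 fold change was 1.98 (adjusted p = 0.023 in limma). Without non-acclimated replicate 2 the log2 fold change was 0.77 (adjusted p = 0.34 in limma). Eif4a2 was lower in the cold in each replicate, with 89.9, 67.7 and 80.3 TPM against 54.6, 57.4 and 73.2 TPM (log2 fold change -0.36, adjusted p = 0.30 in limma). Snora5c, in intron 4 of Tbrg4, a gene for a mitochondrial RNA-binding protein, had 7.22, 10.8 and 18.1 TPM against 18.3, 22.0 and 6.79 TPM (log2 fold change 0.30, SE 0.49, adjusted p = 0.70 in limma). Without both replicate 3 libraries it was upregulated (log2 fold change 1.09, adjusted p = 0.033 in limma). Without non-acclimated replicate 1 alone the log2 fold change was 0.01 (adjusted p = 0.99 in limma). Tbrg4 had 34.6, 55.2 and 107 TPM against 115, 114 and 152 TPM, and thus no overlap between conditions.

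The other 6 tested members of this class had few reads. Snora41 in Eef1b2, which encodes a translation elongation factor subunit, had 9.04, 3.23 and 11.0 TPM against 18.4, 15.7 and 12.1 TPM without overlap (log2 fold change 1.02, adjusted p = 0.12 in limma). Snora75 in Ncl, the gene of the nucleolar protein nucleolin, had 6.29, 5.24 and 1.43 TPM against 17.9, 10.5 and 3.38 TPM. It was higher in the cold in each replicate but overlapped between conditions, with an adjusted p of 0.27 in limma and of 0.021 with the replicate block (log2 fold change 1.04). Snora2b and Snora34, both in Kansl2, had log2 fold changes of 0.92 and 0.84, Snora31 in Tpt1 -0.46 and Snora30 in Srcap -0.04, with adjusted p of 0.16 or more in limma. The sign of Snora30 changed with the scaling of the libraries (0.12 with median of ratios).

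Noncoding host genes held 13 members, of which 9 were tested, 7 of these above 0 with a median of 0.85. Many of these hosts, named Snhg for snoRNA host gene, are known mainly for the snoRNAs they release. Snora44 was upregulated and had the largest log2 fold change of the 28 tested members. It lies in an exon of the annotated main transcript of Snhg12 and had 0, 0 and 2.13 TPM in non-acclimated and 12.8, 11.4 and 6.70 TPM in cold-acclimated replicates, without overlap. These values rest on 0, 0 and 3 reads against 13, 12 and 8. The means were 0.710 ± 1.23 and 10.3 ± 3.21 TPM (SD, n = 3 each), the log2 fold change was 2.91 (SE 0.51) and the adjusted p was 0.012 in limma. With non-acclimated libraries at 0 reads the fold depends on the pseudocount, and with 0.1 in place of 1 it was 5.16 (adjusted p = 0.026 in limma) and 4.88 against the host. Leaving out either library of replicate 1 or 2 moved the adjusted p to between 0.051 and 0.055 in limma, with log2 fold changes of 2.63 to 2.82.

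Snhg12 itself had 26.7, 14.5 and 24.7 TPM against 25.8, 25.7 and 25.5 TPM (log2 fold change 0.26, adjusted p = 0.54 in limma), and the cold-acclimated libraries lay within the non-acclimated range. Snora16a and Snora61, the other members in Snhg12, were not called. Snora16a had 3.22, 5.37 and 12.8 TPM against 11.0, 30.2 and 10.8 TPM (log2 fold change 1.19, adjusted p = 0.15 in limma). Snora61 had 2.35, 0 and 20.1 TPM against 14.9, 3.58 and 4.74 TPM (log2 fold change 0.85, SE 1.04, and 1.92 with a pseudocount of 0.1). Snora16a rests on 3, 6 and 21 reads against 13, 37 and 15, and Snora61 on 1, 0 and 15 against 8, 2 and 3. All 3 members in Snhg12 had log2 fold changes above 0, and differences between them were not tested.

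In Snhg7, Snora17 had 2.21, 0 and 2.52 TPM against 7.88, 21.9 and 4.45 TPM, without overlap (log2 fold change 2.21, SE 0.66, adjusted p = 0.052 in limma and 0.046 with the replicate block), and a value of 3.46 with a pseudocount of 0.1. Snora43, in the same host, had a log2 fold change of 0.77 (adjusted p = 0.38 in limma) and was below its non-acclimated partner in replicate 1. Snora9, in an exon of Snhg15, had 5.48, 11.0 and 18.1 TPM against 28.7, 25.1 and 22.8 TPM, without overlap (log2 fold change 1.21, SE 0.40, adjusted p = 0.066 in limma and 0.041 with the replicate block). Snhg15 had 36.7, 31.9 and 67.4 TPM against 71.3, 55.0 and 75.5 TPM in the cold. Snora74a, inside both Snhg4 and Matr3, had a log2 fold change of 0.14.

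Snora73a and Snora73b, near-identical RNAs known for a role in processing of ribosomal RNA, were both entered in introns of Snhg3. Snora73b had 3.56, 5.94 and 17.0 TPM in non-acclimated and 2.26, 2.17 and 1.43 TPM in cold-acclimated replicates. Every cold-acclimated library was below every non-acclimated one, on 5, 10 and 42 reads against 4, 4 and 3. The log2 fold change was -1.50 (SE 0.50, adjusted p = 0.069 in limma and 0.043 with the replicate block). Without both replicate 3 libraries it was -0.81. Snora73a had 5.69, 5.94 and 22.7 TPM against 7.89, 5.96 and 5.26 TPM (log2 fold change -0.50, adjusted p = 0.51 in limma), so that only its replicate 3 was clearly lower in the cold, and without both replicate 3 libraries the value was 0.21. Snhg3 had 22.4, 19.2 and 121 TPM against 39.1, 41.9 and 82.3 TPM, with its highest levels in replicate 3 at both temperatures. How reads were shared between the 2 copies is not given in the sources used here.

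The change of each member was then set against that of its host in the same libraries. The difference, log2(TPM + 1) of the snoRNA gene minus that of the host, was fitted over 368 pairs of any gene inside another, and called at the same thresholds. It was higher in the cold for 1 member, Snora44, beside 10.3% of all pairs, and lower for 1 member, Snora73b, beside 1.09% of all pairs. For Snora44 the difference changed by 2.65 (SE 0.70, adjusted p = 0.018 in limma), and for Snora73b by -1.94 (SE 0.61, adjusted p = 0.049 in limma). With the replicate block neither was called (adjusted p = 0.066 for both in limma). For Snora44 the call was also lost without either library of replicate 1 or 2 (adjusted p 0.054 to 0.11 in limma), and for Snora73b without any 1 of the 6 libraries (0.069 to 0.19).

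Over the 28 members the median difference was 0.59, and over all 368 pairs, the members and box C/D genes included, it was 0.65. It was above 0 in 22 members (78.6%) and in 70.9% of all pairs. Snora17 (1.99, adjusted p = 0.073 in limma) and Snora81 (1.69, adjusted p = 0.069 in limma) came next in the upward direction, and Snora70 (-1.39, adjusted p = 0.10 in limma) in the downward direction. Snora65, with 0.36, and Snora7a, with 0.05, differed little in fitted value from Rpl12 and Rpl32, with SEs of 0.45 and 0.44. The differences were 0.96 and 0.23 without both replicate 3 libraries, and neither was called. Without both replicate 3 libraries 4 members were called above their hosts (Snora3, Snora17, Snora44 and Snora81) beside 15.8% of all pairs. None of the 23 hosts of tested members was called, and with the replicate block 1 was, Tbrg4 (log2 fold change 1.08, adjusted p = 0.023 in limma). Their median log2 fold changes were 0.33 for the 10 ribosomal protein genes, 0.37 for the 8 other protein-coding genes and 0.26 for the 5 noncoding genes. Across the 28 members, which share libraries and in part hosts, member and host log2 fold changes had a Spearman correlation of 0.14 and a Pearson correlation of 0.12.

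**Figure D4:**
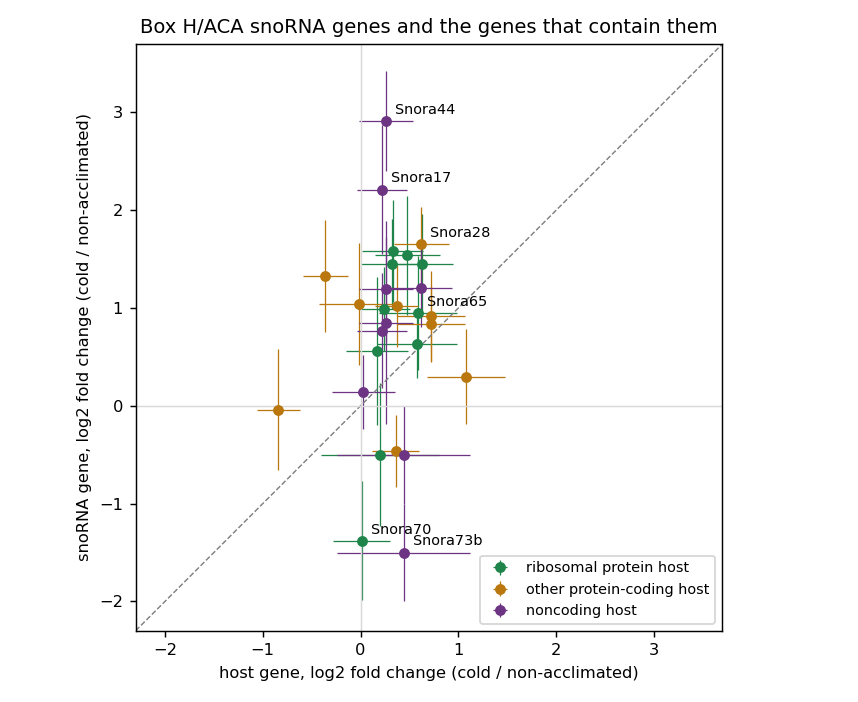
Log2 fold change of each tested member (vertical) against that of its host gene (horizontal), coloured by host class; bars are standard errors and the dashed line marks equal change. Snora44 (2.91) lies far above its host Snhg12 (0.26), and Snora73b (-1.50) and Snora70 (-1.38) lie below the line.

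Reads counted for a member may come from spliced or unspliced RNA of its host as well as from the snoRNA, and in poly(A)+ libraries these cannot be told apart here. In GENCODE M39, 30 members overlap an exon of some other transcript on the same strand, of protein-coding, nonsense-mediated decay, retained-intron or noncoding type, and 10 do not. All 16 members with a mean of at least 10 reads were among the 30. Of the 30, 24 were tested, with a median log2 fold change of 1.00 and 21 above 0. Of the 10 without such an overlap, 4 were tested (Snora30, Snora31, Snora62 and Snora69), with a median of -0.25 and 1 above 0. In Snora31, the most abundant of the 4, the levels were 7.81, 7.60 and 8.91 TPM against 9.29, 2.98 and 6.12 TPM. These 4 members have few reads, and the difference between the 2 sets was not tested.

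The core proteins of the box H/ACA particle were expressed in every library and none was called. Dkc1, the gene of the pseudouridine synthase dyskerin, had 81.9, 144 and 174 TPM in non-acclimated and 188, 235 and 208 TPM in cold-acclimated replicates, without overlap (log2 fold change 0.72, SE 0.31, adjusted p = 0.13 in limma). Nop10 had 187, 179 and 248 TPM against 202, 237 and 211 TPM (log2 fold change 0.09). Nhp2 had 186, 254 and 379 TPM against 357, 273 and 459 TPM (log2 fold change 0.44), and Gar1 66.7, 94.3 and 180 TPM against 115, 145 and 157 TPM (log2 fold change 0.40). The groups of these last 3 overlapped, and their adjusted p lay between 0.37 and 0.81 in limma.

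Of 8 snoRNP assembly factors, not all of which are particular to box H/ACA, 3 rose and 2 fell, beside 2.63% and 16.0% of all tested genes. Naf1, whose protein binds dyskerin during assembly before Gar1 takes its place, rose from 34.2, 51.9 and 55.3 TPM to 90.0, 123 and 80.1 TPM (log2 fold change 1.04, adjusted p = 0.039 in limma). Nufip1, a snoRNP assembly factor, rose from 24.6, 25.4 and 31.6 TPM to 71.0, 67.1 and 72.5 TPM (log2 fold change 1.34, adjusted p = 0.0096 in limma). Nopchap1, a chaperone adaptor of snoRNP assembly, rose from 52.0, 76.7 and 72.7 TPM to 155, 210 and 201 TPM (log2 fold change 1.48, adjusted p = 0.011 in limma). None of these 3 overlapped between conditions. Ruvbl1 and Ruvbl2, the ATPases of the chaperone complex that serves both snoRNA classes and other assemblies, fell by 1.35 and 1.05 on the log2 scale (adjusted p = 0.038 and 0.037 in limma), from 105, 164 and 141 TPM to 39.5, 40.0 and 88.9 TPM and from 125, 186 and 173 TPM to 67.0, 64.7 and 104 TPM. With median of ratios scaling neither was called (-0.96 and -0.65). Shq1, Pih1d1 and Rpap3 were not called in the main fit, with log2 fold changes of 0.18, -0.74 and -0.16 (adjusted p = 0.74, 0.090 and 0.76 in limma).

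Among 12 genes of 3′ end maturation and decay, Dis3, a catalytic subunit of the RNA exosome, rose from 54.0, 87.5 and 162 TPM to 242, 258 and 303 TPM (log2 fold change 1.53, adjusted p = 0.032 in limma) and the other 11 were not called. Among 6 genes of Cajal bodies and nucleolar partners, Smn1, which encodes the SMN protein of RNP assembly, rose from 40.5, 44.2 and 76.2 TPM to 141, 113 and 109 TPM (log2 fold change 1.21, adjusted p = 0.028 in limma). Of the 4 box C/D core proteins, Nop58 rose from 148, 199 and 240 TPM to 320, 373 and 484 TPM (log2 fold change 1.01, adjusted p = 0.040 in limma). Of these 8 called genes only Nopchap1 stayed called whichever of the 6 libraries was left out, and only Nufip1 and Nopchap1 when genes were not filtered on low values. The medians of the 5 lists ran from 0.01 for the assembly factors to 0.54 for the box C/D core proteins, beside -0.34 over all tested genes.

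The box C/D snoRNA genes, most of which guide methylation of ribosomal RNA, were measured in the same libraries. Of 65 tested, 9 were upregulated and 1 was downregulated, beside 2.63% and 16.0% of all tested genes, with a median log2 fold change of 0.72 and 49 above 0 beside 33.5% of all tested genes. Their summed level was 594, 729 and 1038 TPM in non-acclimated and 1667, 2663 and 1204 TPM in cold-acclimated replicates, and the ratio within replicates 1, 2 and 3 was 2.81, 3.65 and 1.16. Box C/D genes together were 2.51 to 4.39 times as abundant per length as box H/ACA genes in the same library. These are sums over 100 and 40 genes, so the ratio is not one per gene. Whether the classes differ in their change was not tested.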

How the data were processed

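Poly(A)+ RNA from 3 cold-acclimated and 3 non-acclimated D10 cultures was sequenced by the authors as strand-specific paired-end libraries, aligned to GRCm39 with HISAT2 2.1.0 after FastQC 0.11.7 and Trimmomatic 0.38, and counted with featureCounts 1.6.3, per the labels. The deposited values are TPM. The authors tested genes with DESeq2; the annotation release, the strand setting and the treatment of reads that fall in 2 genes were not stated in any source used. Read numbers were recovered from the steps of the TPM values (whole within 1e-06 reads for 21195 genes, 100.0% of those above 0).

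Genes with a mean of at least 1 TPM were tested with limma 3.58.1 (R 4.3.3) on log2(TPM + 1) with a variance trend and Benjamini-Hochberg adjustment over all of them. The pair fit used the difference between inner gene and host, with the trend taken on the reads of the gene with fewer reads. The host was the shortest protein-coding or noncoding gene over 200 bases that contains the snoRNA gene on the same strand. On simulated data with 4-fold changes the gene fit recovered 187 of 200 changed genes with 12 other calls, and the pair fit 24 of 38 with 2 other calls. The changed genes were drawn from genes with more reads than every member but Snora65, and no shared replicate effect was simulated. These rates therefore do not give the recovery of genes with as few reads as most members. Libraries with the same replicate number in the labels deviated together from the condition means (correlations 0.48, 0.50 and 0.51 over the tested genes), and were taken as paired in the replicate block. Different numbers had correlations of -0.41 to 0.02. Deviations from a condition mean cancel out within the condition, so these values are not independent of those for the same number. Genome copies were searched with blastn 2.17.0; tables and figures were made with Python 3.11.15, pandas 2.3.3 and matplotlib 3.10.9.

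The members, lists and tests were chosen with earlier results of these data known. Values in every library are given for called members, the 10 members with the highest mean TPM, members whose difference from the host was called, their hosts (the host of 1 member is not reported here), the 4 core proteins and called genes of the lists; values of other members in every library were added after they were seen. The authors' own comparisons were not used. Counts of reads give the precision, and floors cover counting error only.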

Additional observations from a re-analysis of the deposited data

How the results depend on the processing

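The number of members upregulated (2) was 6 with median of ratios scaling, 6 with the replicate block, 1 without a filter on low values, 1 with a filter of 10 reads, 1 with limma-voom on recovered reads, and 0 to 15 when libraries were left out: 0 without either library of replicate 1 or 2, 5 without non-acclimated replicate 3, 7 without cold-acclimated replicate 3 and 15 without both. Calls over all 12227 tested genes moved as well. In the main fit 321 were upregulated, and 59 to 78 without a library of replicate 1 or 2. The number was 395 without non-acclimated replicate 3, 459 without cold-acclimated replicate 3 and 653 without both. It was 802 with median of ratios scaling, 458 with the replicate block and 409 with limma-voom. Without the filter it was 184 of 21195 genes, and with the filter of 10 reads 305 of 12992. The number of members downregulated (0) was 1 with the replicate block, beside 2679 of all tested genes. Members called above their host (1) were 0 with a filter of 10 reads, 0 with the replicate block and 0 to 4 with libraries left out. Over all 368 pairs the number was 38 in the main fit, 16 with the replicate block and 9 to 58 with libraries left out. With the filter of 10 reads it was 41 of 230 pairs. Members called below their host (1) were 0 with a pseudocount of 0.1, 0 without a filter, 0 with the replicate block, 0 with the trend on the mean difference and 0 with any library left out. Over all pairs the number was 4 in the main fit and 0 to 4 in these settings. The median change of the members, alone and against the hosts, was above 0 in every setting run. Against the hosts this was not particular to them, as the median over all pairs was also above 0 in each setting (0.39 to 0.92). The ratio of summed levels (1.91) was 2.04 with recovered reads scaled to library totals (RPM). The cause of these differences was not tested, apart from the smaller number of libraries or genes in some.

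The sign turned in some members that were not called. Snora30 was 0.12 with median of ratios scaling. With libraries left out, Snora30 ran from -0.55 to 0.45, Snora5c from -0.00 to 1.09, Snora61 from -0.17 to 2.22, Snora62 from -0.33 to 1.14, Snora69 from -1.37 to 0.17, Snora73a from -0.81 to 0.21, Snora74a from -0.17 to 0.48, and against their hosts Snora7a from -0.12 to 0.31, Snora2b from -0.04 to 0.54, Snora34 from -0.25 to 0.42, Snora61 from -0.17 to 1.85, Snora62 from -0.73 to 1.04 and Snora74a from -0.31 to 0.69. The alternatives without both replicate 3 libraries and with another variance trend were chosen after seeing the data. At 12.6 reads per library in the median member, depth limits what a single member can show.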
